A study of Rattus norvegicus with 3 samples.

Results

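The 37 genes described here encode proteins that license, start and carry out DNA replication, that drive cells from one phase of the cell cycle to the next, or that hold this drive back. They were listed by symbol, and each was represented by the probe set of highest mean signal among those that name it alone. This gave 36 of the 14217 named genes on the array. Both probe sets for Rrm2, the small subunit of ribonucleotide reductase, also name a related gene, so it has no value here. Of the 36 genes, 34 reached the signal floor on at least 1 array, where the floor is a log2 signal of 6.01, below which 40% of all values lie. Of these, 32 reached it on all 3 arrays. Aurka and Bub1b reached it on the suspended arrays alone, so they could be counted only as higher. Tyms and Plk1 lay under it on every array.

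The tissue was the soleus, a slow postural hind limb muscle, of white Sprague-Dawley rats aged 8 weeks. All rats were fed normally. The groups are control rats, rats of the hind limb suspension group HS at 7 days and rats of HS at 14 days. Suspension was by the taped tail at about 30 degrees, a model of unloading that leaves the hind limbs without weight. RNA from 4 rats was mixed per group for 1 Affymetrix array, so there are 3 arrays, no replicate, no spread between rats and no test. The title and the time entry of the last group give 14 days, but its source name gives 7. The control carries a time of 7 days, so the 14-day group has no control of its own time, and both suspended groups are set against the same control array.

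In a dividing cell, cyclin D with its kinases relieves the block that the retinoblastoma protein places on E2F transcription factors. E2F then turns on the genes of the replication fork, and a later wave of genes, many controlled through the CHR element and CCAAT boxes of their promoters, builds the mitotic machinery. Inhibitors of the p27 and p16 families hold cells in G1. Mature muscle fibres have left the cell cycle for good, and the cells of muscle that can divide are satellite cells, endothelial cells, fibroblasts and immune cells. A muscle sample therefore carries low levels of proliferation transcripts from a minor share of its cells.

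On the control, 7-day and 14-day arrays 61.6%, 59.1% and 59.3% of probe sets reached the floor, and 53, 104 and 134 were at 0. The 3' control probe set exceeded the 5' one by log2 differences of 1.16, 1.21 and 1.25 for beta-actin. For Gapdh the values were 0.25, 0.24 and 0.20. Each pattern with control lowest or highest rests on the 1 control array. The slow fibre markers Myh7, Tnni1, Tnnt1, Tnnc1, Myl2 and Myl3, with Acta1, Ckm, Mb and Des, had log2 signals from 14.11 to 15.84, near the top of the arrays. The only error that can be had is technical. It was taken from 2293 genes whose 2 brightest probe sets both reached the floor on every array. It is the SD by which one probe set's log2 difference strays. Error that both probe sets share on an array cancels in this SD, so error between arrays is not fully held in it. For 7 days against control it was 0.48 at mean signals under 8, 0.34 from 8 to 10 and 0.26 at 10 and above. For 14 days against control it was 0.47, 0.34 and 0.28, and for 14 against 7 days 0.38, 0.28 and 0.20. Precision is limited by having 1 array per group.

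As a set the members stood somewhat higher in the suspended soleus than in control, many of them from low signals, and cyclin D2 stood lower. Not all members drive proliferation: Rb1, a repressor, is among those counted above control at both times, while Pcna stayed level. After 7 days, 8 of 34 members lay at least 1.5-fold above control, where 9.04% of the 11233 measured genes did, and 1 lay at least 1.5-fold below, where 9.15% did. After 14 days, 11 lay at least 1.5-fold above control, against 11.7% of all measured genes, and 1 lay as far below, against 9.25%. The members' median log2 difference was 0.19 at 7 days and 0.31 at 14 days, against 0.00 and 0.01 over all measured genes. Over the 32 members that reached the floor on every array, the counts above control were 8 and 10, or 25.0% and 31.2%, against 9.17% and 11.8% of the 9786 genes with the same property. The members were listed with earlier results of these data known, so these shares describe these arrays and no chance is attached to them.

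Over all measured genes, 49.7% of those at least 1.5-fold apart at 7 days were higher, or 61.1% with each array centred on its median. For 14 against 7 days the share was 60.1%, or 48.9% with centring. The members' median was positive in all 3 comparisons under both other scalings, at 0.24 and 0.26 for 7 days and at 0.33 and 0.30 for 14 days with median centring and quantile normalization. Dim probe sets vary more, and members were dimmer than most genes: 52.9% had a mean log2 signal under 8, against 34.6% of all measured genes. Among genes under 8, 4 of 18 members and 10.8% of all measured genes were at least 1.5-fold higher at 7 days, and 8 of 18 members and 13.8% of all at 14 days. At signals of 8 and above the same counts were 4 of 16 against 8.08%, and 3 of 16 against 10.5%. In bulk tissue, more dividing cells and more RNA per cell cannot be told apart.

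**Figure D1:**
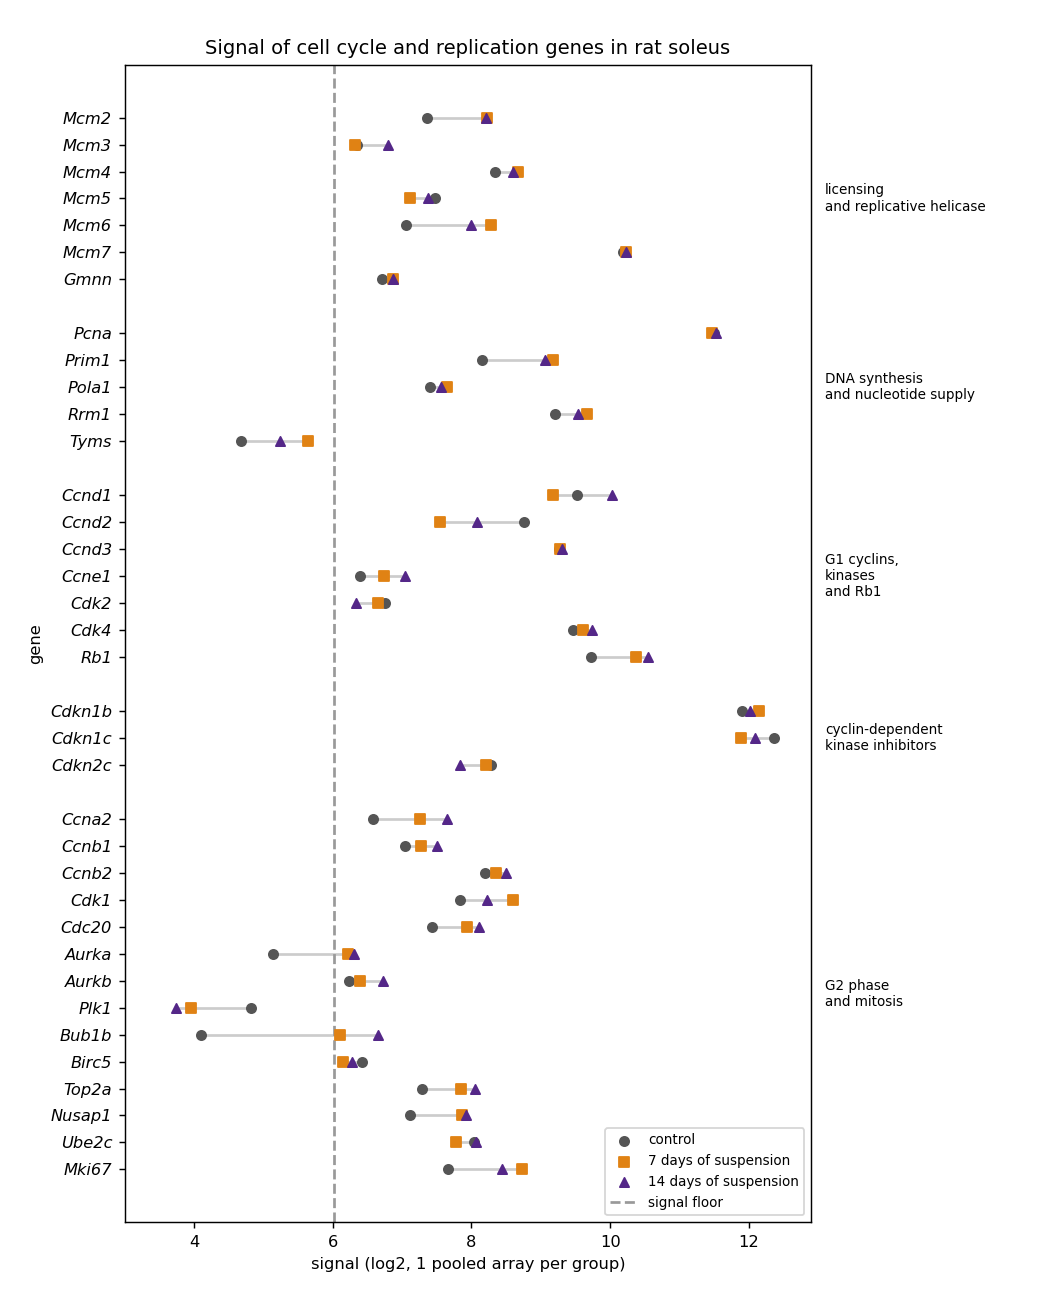
Log2 signal (x axis) of the 36 genes with a probe set of their own (y axis, grouped by role) on the 3 arrays, 1 pooled array per group; grey lines join the lowest and highest array and the dashed line is the floor at 6.01. Most control signals lie to the left of both suspended signals in the mitotic group, Ccnd2 shows the reverse, and levels of different genes are not comparable because each probe set has its own response.

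Licensing of replication origins loads the hexamer of Mcm2 to Mcm7, the core of the helicase that unwinds DNA, and geminin, the product of Gmnn, blocks a second loading. The members of this group did not move as a block: Mcm2 and Mcm6 stood apart from the other subunits. Mcm6 had log2 signals of 7.06 in control, 8.28 at 7 days and 7.99 at 14 days, which is 2.33-fold and 1.91-fold above control. Mcm2 had signals of 7.36, 8.22 and 8.21, or 1.81-fold above control at either time. Both suspended arrays were high and control was low for each of these genes, by log2 differences of 1.22 and 0.93 for Mcm6 and 0.86 and 0.85 for Mcm2 against a technical SD of 0.48 and 0.47. The other helicase subunits lay nearer to control. Mcm4 differed by 0.33 at 7 days and 0.26 at 14 days, Mcm7 by 0.05 and 0.04, and Mcm3 by -0.03 and 0.44. Mcm5 was the one subunit below control at both times, by -0.36 and -0.10, and Gmnn differed by 0.16 at each. Apart from Mcm2 and Mcm6, these differences were within the technical SD, and 2 of 7 genes passed 1.5-fold at either time. Over all measured genes 9.04% stood as far above control at 7 days and 11.7% at 14 days. The group's median was 0.16 at 7 days and 0.26 at 14 days.

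The promoters of the 2 genes that stood apart are shown because each holds an E2F-type match, searched as TTTGGCG or as TTTGCCG or as TTTCGCG or as TTTCCCG on either strand. The sequences are the 250 bases before the RefSeq start of the gene in GRCr8, written 5' to 3' on the strand of the gene. Capitals mark matches to these letters, to the letters TTTGAA of the CHR element and to the letters of the CCAAT box, likewise on either strand. In both genes 2 E2F-type matches on opposite strands overlap each other, ending near the start in Mcm2 and lying 134 to 139 bases before it in Mcm6, counted to the first base of each match. Such a pair is not particular to them: Mcm5, within the technical SD of control at both times, holds one 208 to 213 bases before its start.
Mcm2, chr4:122918095-122918344, minus strand: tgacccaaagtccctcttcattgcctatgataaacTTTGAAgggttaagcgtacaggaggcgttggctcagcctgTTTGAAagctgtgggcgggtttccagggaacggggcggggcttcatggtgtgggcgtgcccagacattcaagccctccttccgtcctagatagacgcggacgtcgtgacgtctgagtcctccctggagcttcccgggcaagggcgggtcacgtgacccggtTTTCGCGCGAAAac
Mcm6, chr13:42404353-42404602, minus strand: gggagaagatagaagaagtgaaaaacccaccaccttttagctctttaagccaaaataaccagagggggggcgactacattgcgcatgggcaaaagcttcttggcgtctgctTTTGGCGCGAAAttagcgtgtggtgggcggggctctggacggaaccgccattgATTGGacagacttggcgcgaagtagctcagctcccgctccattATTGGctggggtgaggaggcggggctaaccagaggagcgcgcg

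DNA synthesis itself was represented by the sliding clamp Pcna, the primase subunit Prim1, the polymerase alpha subunit Pola1 and the enzymes of nucleotide supply Rrm1 and Tyms. Prim1, which lays the RNA primers that polymerase alpha extends, had log2 signals of 8.15 in control, 9.17 at 7 days and 9.07 at 14 days. It stood 2.03-fold and 1.89-fold above control, log2 differences of 1.02 and 0.92 at a technical SD of 0.34. Prim1 was the one gene of 4 measured here that passed 1.5-fold, where 9.04% and 11.7% of all measured genes stood as far above control. Pcna had the signals 11.49, 11.48 and 11.52, differences of -0.02 and 0.03 at a technical SD of 0.26 and 0.28. Pcna also serves DNA repair, and all 3 arrays gave nearly the same value for it. Rrm1, the large subunit of ribonucleotide reductase, had 9.21, 9.67 and 9.54, or 1.37-fold and 1.25-fold above control. Pola1 had 7.40, 7.65 and 7.56 and lay within the technical SD of control. Tyms, thymidylate synthase, had signals of 4.68, 5.64 and 5.24, all under the floor, and no difference is drawn from them.

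Among the genes of G1 control the 3 D-type cyclins differed from one another. They are the partners of Cdk4 and are made in answer to growth signals. Ccnd2 had log2 signals of 8.76 in control, 7.55 at 7 days and 8.08 at 14 days, so that control was the highest array. It stood 2.31-fold below control at 7 days and 1.60-fold below at 14 days, log2 differences of -1.21 and -0.67 at a technical SD of 0.34. By brightest probe sets it was the one member at least 1.5-fold lower in either comparison. Further probe sets were as far below for other members: Ccnd1 by -1.18 and Cdk2 by at least 0.95 at 7 days, and Cdkn2c by -0.76 and -0.86 at 7 and 14 days. Ccnd1 had signals of 9.52, 9.17 and 10.02, lower than control at 7 days by -0.35 and higher at 14 days by 0.50. Ccnd3 had 9.26, 9.27 and 9.30, and the 3 arrays gave nearly one value for it.

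Downstream of the D-type cyclins, Rb1, which encodes the retinoblastoma protein that restrains E2F, had signals of 9.73, 10.38 and 10.55. It stood 1.57-fold and 1.77-fold above control, by 0.65 and 0.82 at a technical SD of 0.26 and 0.28. Both suspended arrays were high for Rb1, the repressor, as they were for Mcm2, Mcm6 and Prim1. Ccne1, the cyclin that starts S phase with Cdk2, had 6.40, 6.73 and 7.04, or 1.56-fold above control at 14 days, near the floor and with a technical SD of 0.47. Cdk4 differed by 0.14 and 0.27, and Cdk2 by -0.09 and -0.42. The group of 7 had 1 gene at least 1.5-fold higher and 1 lower at 7 days, and 2 higher and 1 lower at 14 days. Over all measured genes the shares were 9.04% higher and 9.15% lower at 7 days, and 11.7% and 9.25% at 14 days. The median of the 7 genes was 0.01 at 7 days, a sign that turned to -0.01 under quantile normalization, and 0.27 at 14 days.

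On their brightest probe sets the 3 inhibitors of cyclin-dependent kinases all lay within 1.5-fold of control. Second probe sets went further: that of Cdkn1b gave 0.71 at 7 days and 0.45 at 14 days, and that of Cdkn2c gave -0.76 and -0.86. The value of Cdkn1b at 7 days and both values of Cdkn2c passed 1.5-fold. Cdkn1b, which encodes p27, had log2 signals of 11.91 in control, 12.15 at 7 days and 12.01 at 14 days. Cdkn1c, which encodes p57 and is known from differentiating muscle, had 12.36, 11.89 and 12.08, so that control was the highest array and the differences were -0.47 and -0.28. The former exceeded the technical SD of 0.26, and the latter was at it, 0.28. Cdkn2c, which encodes p18 and blocks Cdk4, differed by -0.08 at 7 days and by -0.44 at 14 days. The median of the 3 genes was -0.08 and -0.28.

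The genes of G2 phase and mitosis were the largest group, and 11 of 13 measured members lay above control at 7 days and 12 of 13 at 14 days. Of all 11233 measured genes, 5548 lay above control at 7 days and 5759 at 14 days. At least 1.5-fold higher were 4 at 7 days and 6 at 14 days, or 30.8% and 46.2%, and none was as far below. Over all measured genes 9.04% and 11.7% stood as far above control, and 9.15% and 9.25% as far below. Aurka and Bub1b could only come out higher; over the 11 that reached the floor on every array, 9 and 10 lay above control, 4 and 5 of them by at least 1.5-fold. The median of the 13 was 0.24 at 7 days, or 0.31 under either other scaling, and 0.48 at 14 days, and that of the 11 was 0.51 and 0.48. All of these values rest on the brightest probe set of each gene. The second probe set lay below control for Ccnb1 at both times and for Top2a at 7 days. Averaging all probe sets took Cdc20 to 0.05 at 7 days and 0.09 at 14 days. Mki67, which encodes the Ki-67 antigen of cycling nuclei, had log2 signals of 7.67 in control, 8.73 at 7 days and 8.44 at 14 days. It was 2.09-fold and 1.70-fold above control, by 1.06 and 0.77 at a technical SD of 0.34. Ccna2, the cyclin of S and G2 phase, had 6.58, 7.26 and 7.65, or 1.61-fold and 2.11-fold above control, by 0.69 and 1.08 at a technical SD of 0.48 and 0.47. For these genes control was the lowest array, with the 7-day array highest for Mki67 and the 14-day array highest for Ccna2.

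Cdk1, the kinase that drives entry into mitosis, had signals of 7.84, 8.60 and 8.22, or 1.69-fold above control at 7 days and 1.30-fold at 14 days. Nusap1, a spindle protein, had 7.11, 7.86 and 7.92, or 1.68-fold and 1.75-fold. Top2a, the topoisomerase that untangles sister chromatids, had 7.29, 7.84 and 8.05, or 1.47-fold and 1.69-fold. On their brightest probe sets the 3 genes shared the order of control below both suspended arrays. Their log2 differences at 7 days were 0.76, 0.75 and 0.56, at technical SDs of 0.34, 0.48 and 0.48. The second probe set of Top2a had 6.90, 6.64 and 7.08, with the 7-day array lowest. Cdc20, which activates the anaphase-promoting complex, had 7.43, 7.94 and 8.11, or 1.43-fold and 1.61-fold. Bub1b, a kinase-like protein of the spindle checkpoint, had a control signal of 4.10, under the floor, and 6.11 and 6.66 on the suspended arrays, so it was at least 1.56-fold higher at 14 days.

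The rest of the mitotic genes lay closer to control. The B-type cyclins that partner Cdk1 differed by 0.24 and 0.47 for Ccnb1 and by 0.16 and 0.30 for Ccnb2. Aurkb, the kinase of the chromosomal passenger complex, had 6.24, 6.39 and 6.72, whereas Birc5, another subunit of that complex, had 6.43, 6.15 and 6.27, its highest value in control. Aurka, the centrosome kinase, had a control signal of 5.14 under the floor and 6.22 and 6.31 in suspension, which gives at least 1.15-fold and 1.23-fold. Ube2c, the ubiquitin-conjugating enzyme of the anaphase-promoting complex, differed by -0.26 and 0.03. Plk1, a mitotic kinase, had 4.81, 3.96 and 3.74, under the floor throughout, so no difference is drawn. None of Ccnb1, Ccnb2, Aurka, Aurkb, Birc5 and Ube2c passed 1.5-fold at either time, with Aurka known only as a bound.

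The promoters of 3 mitotic members that stood higher on their brightest probe sets are shown, with the capitals as above. Each holds both a CHR element and CCAAT boxes, which is not so of all the higher mitotic genes. Nusap1 holds CCAAT boxes but no CHR match, and Bub1b holds none of the 3 motifs. Birc5 and Ccnb2, which did not pass 1.5-fold, hold a CHR element and a CCAAT box as well. In Mki67 a CHR element 99 bases before the start shares a base with a CCAAT box on the other strand. The CHR match nearest to the start lies 16 bases before it in Cdk1 and 22 bases before it in Top2a, where it is on the strand opposite to the gene.
Mki67, chr1:199952594-199952843, minus strand: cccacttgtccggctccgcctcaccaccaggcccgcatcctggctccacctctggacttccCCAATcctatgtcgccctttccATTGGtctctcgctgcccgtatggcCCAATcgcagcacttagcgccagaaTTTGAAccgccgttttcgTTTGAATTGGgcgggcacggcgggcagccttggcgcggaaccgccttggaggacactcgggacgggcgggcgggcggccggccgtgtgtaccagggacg
Cdk1, chr20:19265043-19265292, plus strand: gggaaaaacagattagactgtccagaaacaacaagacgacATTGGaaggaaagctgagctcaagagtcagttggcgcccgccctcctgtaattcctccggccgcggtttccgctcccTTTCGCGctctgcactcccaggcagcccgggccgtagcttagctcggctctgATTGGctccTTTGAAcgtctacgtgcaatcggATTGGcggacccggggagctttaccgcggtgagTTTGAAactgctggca
Top2a, chr10:84473094-84473343, minus strand: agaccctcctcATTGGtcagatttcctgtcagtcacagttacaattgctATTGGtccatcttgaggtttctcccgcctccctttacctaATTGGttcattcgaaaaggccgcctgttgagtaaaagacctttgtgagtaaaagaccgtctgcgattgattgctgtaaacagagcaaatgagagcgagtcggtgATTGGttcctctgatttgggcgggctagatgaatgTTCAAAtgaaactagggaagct

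**Figure D2:**
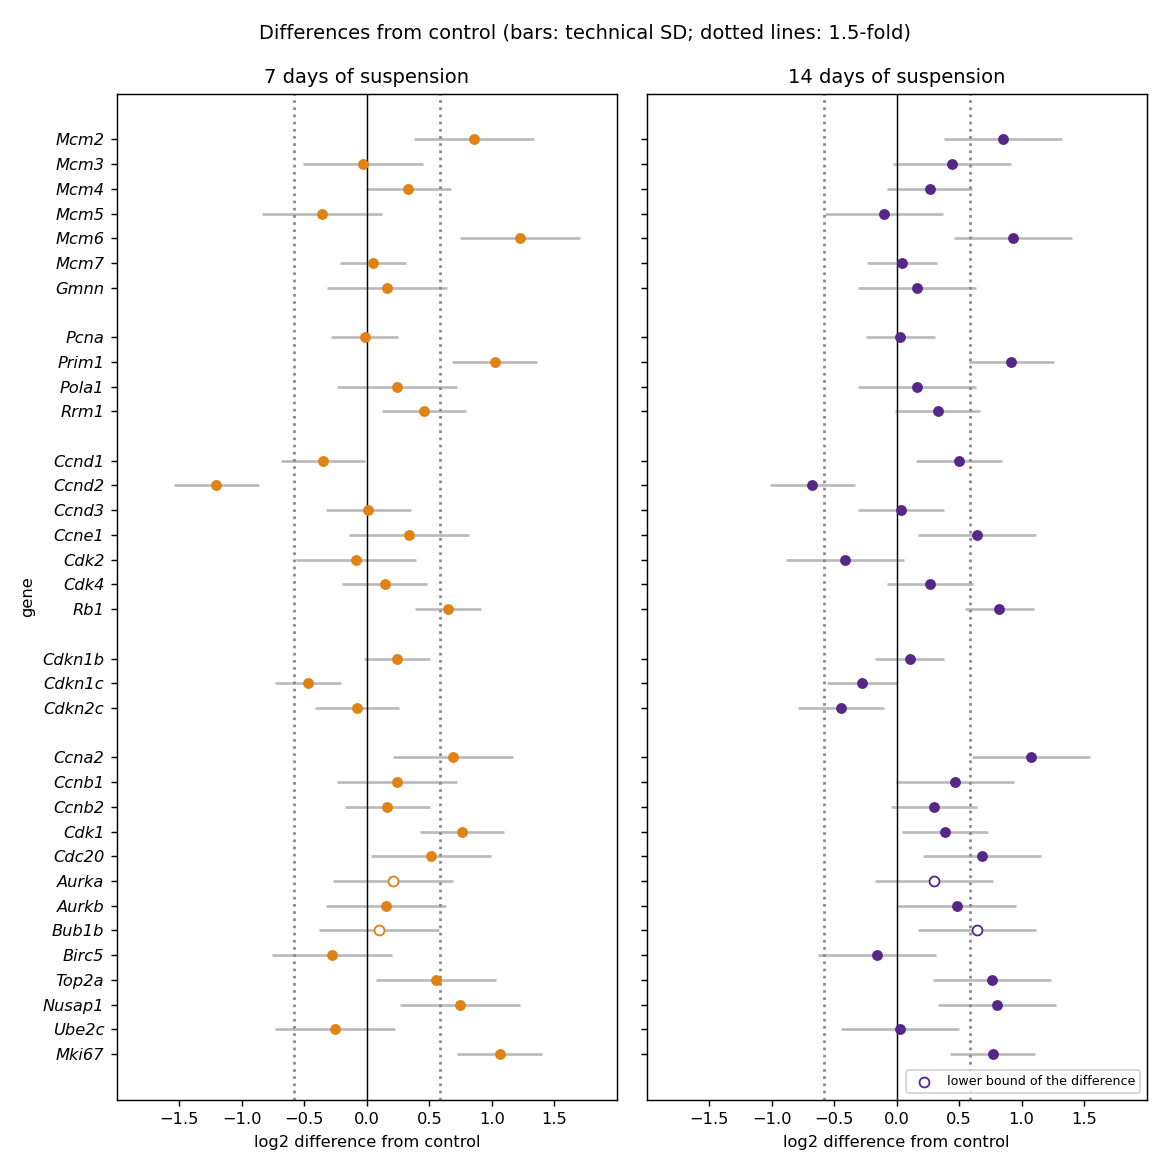
Log2 difference from control (x axis) of the 34 measured genes (y axis, in the order of their roles) at 7 and 14 days, with bars of 1 technical SD on either side, open circles for lower bounds and dotted lines at 1.5-fold. Mcm6, Prim1 and Mki67 lie farthest to the right at 7 days and Ccna2 at 14 days, Ccnd2 farthest to the left at both times, and the bars hold no spread between rats.

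**Figure D3:**
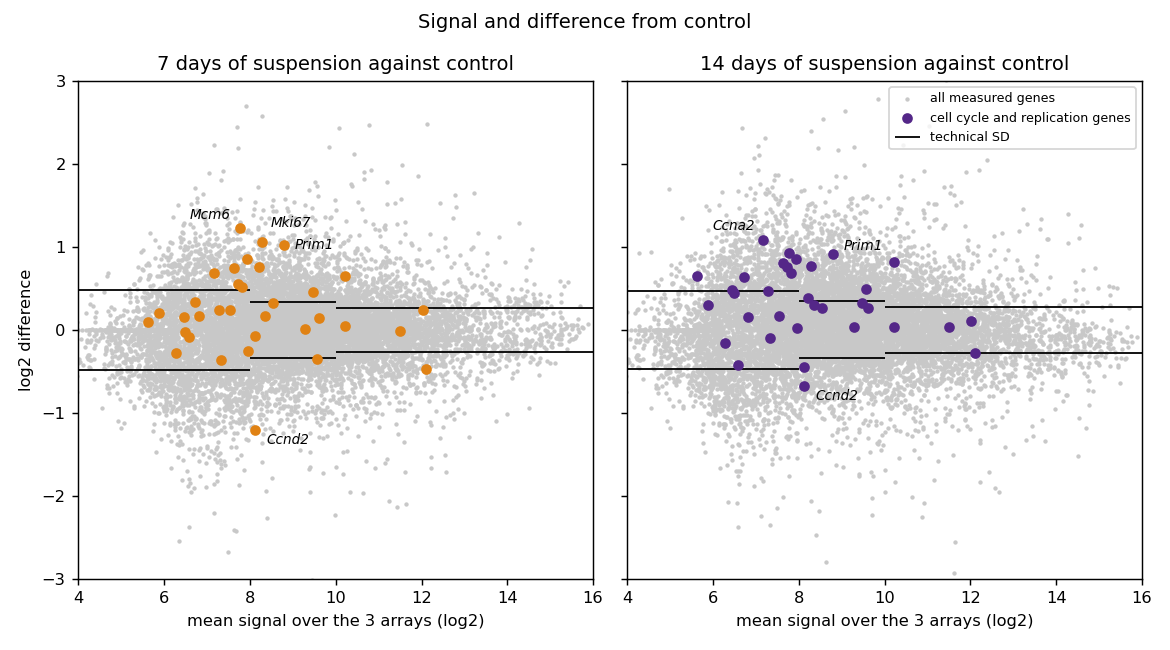
Log2 difference from control (y axis) against the mean log2 signal over the 3 arrays (x axis) for all measured genes in grey and the 34 members in colour, with black lines at 1 technical SD in each signal range. The members sit mostly at signals from 6 to 10, where all genes scatter widely; the axis ends at 3, which leaves out 6 genes at 7 days and 10 at 14 days, none of them a member.

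Between 7 and 14 days of suspension the members lay closer together. The median log2 difference was 0.11, against 0.00 over all measured genes. At least 1.5-fold higher at 14 days was 1 of 34 members, against 6.45% of all measured genes, and none was as far below, against 4.28%. The gene was Ccnd1, 1.80-fold higher at 14 than at 7 days, by 0.85 at a technical SD of 0.28. Ccnd2 was 1.45-fold higher and Bub1b 1.46-fold, both within 1.5-fold. Cdk1 differed by -0.38, Cdkn2c by -0.37, Mki67 by -0.29 and Mcm6 by -0.29, below the 7-day array. Of the replication genes, 2 of 7 in the licensing group and 1 of 4 in DNA synthesis lay above the 7-day value, whereas 11 of 13 mitotic genes did. The medians of these groups were -0.01, -0.09 and 0.17, with the same signs under both other scalings, and whether the groups differ was not tested. The further mitotic genes, outside the members, did not lean the same way: 17 of 40 lay above the 7-day value and 23 below, with a median of -0.03. All 3 comparisons share arrays, so they are not separate evidence.

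Further probe sets of the same gene give a second reading that the choice of the brightest did not use. They were present for 9 members, 13 probe sets in all, of which 7 reached the floor on every array. Of these 7, 5 had the sign of the brightest probe set at 7 days, 5 at 14 days and 6 between the times. For Nusap1 the second probe set gave 0.71 and 1.09 where the brightest gave 0.75 and 0.81. For Cdkn1b it gave 0.71 and 0.45 where the brightest gave 0.24 and 0.10, and for Cdkn2c it gave -0.76 and -0.86 where the brightest gave -0.08 and -0.44. Nusap1, Cdkn1b and Cdkn2c thus had one direction in both probe sets, and for the inhibitors the size differed.

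For Top2a the second probe set gave -0.27 at 7 days and 0.18 at 14 days, where the brightest gave 0.56 and 0.76. For Ccnb1 it gave -0.09 and -0.40, where the brightest gave 0.24 and 0.47. Top2a at 7 days and Ccnb1 at both times therefore have no settled direction. The further probe sets of Ccnd1 gave -1.18 and -0.09 at 7 days, below control like the brightest, and -0.13 and 0.30 at 14 days. Between the times they gave 1.05 and 0.39, both higher at 14 days as was the brightest at 0.85, while the direction of Ccnd1 from control at 14 days is not settled. Cdc20 has 4 further probe sets, each under the floor on at least 1 array, and their differences without a floor ran from -1.35 to 0.99 at 7 days and from -1.21 to 1.13 at 14 days. Of these, 1 had a control signal of 5.85, under the floor, and 6.29 and 6.69 in suspension, a log2 difference of at least 0.68 at 14 days where the brightest gave 0.68. The further probe set of Cdk2 had 6.96 in control, 5.93 at 7 days, under the floor, and 6.73 at 14 days. It lay below control by at least 0.95 at 7 days, where the brightest gave -0.09, and was higher at 14 than at 7 days by at least 0.72, where the brightest gave -0.33, so the direction of Cdk2 between the times is not settled.

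**Figure D4:**
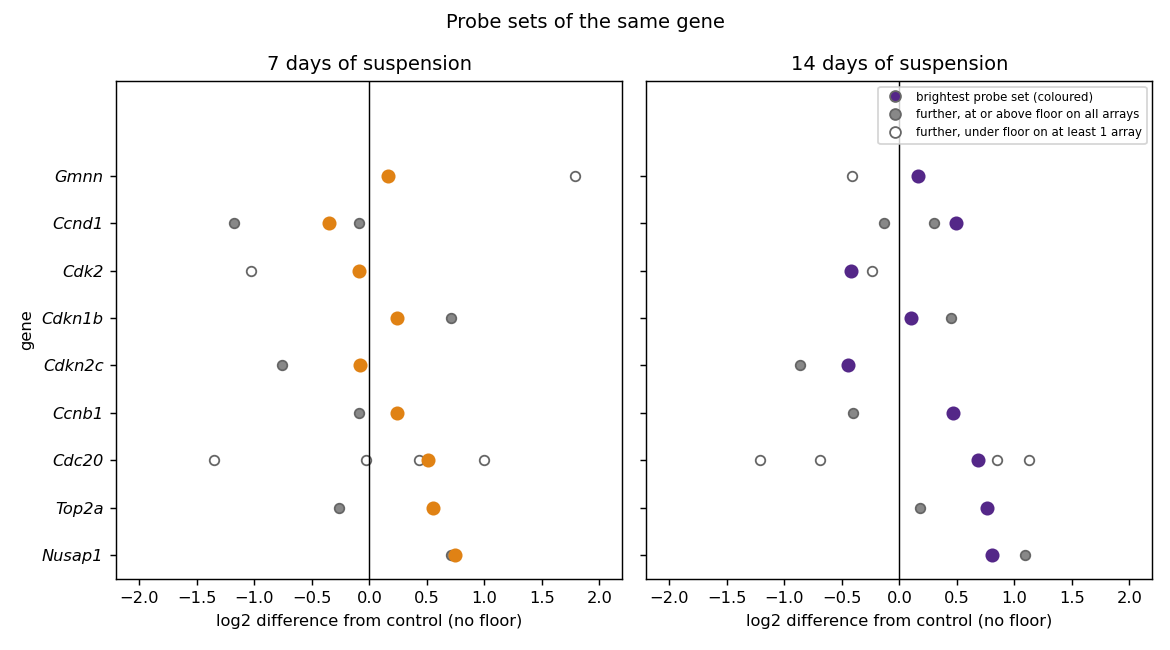
Log2 difference from control without a floor (x axis) of every probe set of the 9 members with more than 1 (y axis), at 7 and 14 days; coloured points are the brightest probe set, grey points further ones that reached the floor on all arrays and open points further ones that did not. The points of Nusap1 lie together to the right of 0, those of Ccnb1 fall on both sides and those of Cdc20 span the axis.

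The other genes of these pathways, listed by function, held genes that differed in both directions. Their counts are to be read against the shares of all measured genes, 9.04% higher and 9.15% lower at 7 days and 11.7% and 9.25% at 14 days. Of 38 further replication genes, 9 were 1.5-fold or more above control and 4 below at 7 days, and 6 above and 4 below at 14 days, with medians of 0.13 and 0.10. That is 23.7% and 15.8% above, and 10.5% below at each time, which is near the share of all genes for those below. The largest differences were those of Cdt1, which loads the Mcm helicase, with a control signal of 5.94 under the floor and 7.35 and 7.59 in suspension, at least 2.53-fold and 2.98-fold higher. Rfc2, a subunit of the clamp loader, was 1.73-fold and 1.93-fold higher, and Rpa2, a subunit of the protein that coats single-stranded DNA, 1.87-fold and 1.35-fold. Of 40 further mitotic genes, 6 stood above and 1 below at 7 days, and 6 above and 2 below at 14 days, with medians of 0.19 and 0.14. Ect2, an exchange factor needed for cytokinesis, had signals of 6.42, 7.84 and 7.85, or 2.67-fold and 2.68-fold higher. The kinesin Kif15 had 6.45, 7.57 and 6.48 and was higher on the 7-day array alone. Kif23, a kinesin of the midbody, was 1.62-fold and 1.97-fold higher, but its second probe set gave -2.36 and -0.82.

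Of 26 further genes of G1 control, 4 stood at least 1.5-fold higher and none lower at 7 days, and 5 higher and 2 lower at 14 days, with medians of 0.14 and 0.18, so that 15.4% and 19.2% stood higher. Cdkn1a, which encodes the inhibitor p21, had 10.51, 11.49 and 11.45, or 1.98-fold and 1.92-fold higher, with 1.0 and 0.08 in a second probe set. Lin52, a subunit of the MuvB complex, which binds CHR elements, had 6.37, 7.22 and 8.02, or 1.80-fold and 3.13-fold. Ccne2 had a control signal of 3.54, under the floor, and 7.37 and 7.68 in suspension, at least 2.56-fold and 3.17-fold higher, while a second probe set gave 0.06 and 0.52. Inhibitors and drivers of the cycle were thus both among the higher genes. Of 14 genes of checkpoints and the DNA damage response, 4 stood higher and none lower at 7 days and 3 higher at 14 days, among them Atrip, the partner of the kinase Atr, at 2.04-fold and 1.60-fold. Wee1, which holds Cdk1 inactive, had signals of 7.34 in control and at 14 days and was 1.72-fold higher at 7 days, with -0.38 and -0.33 in a second probe set, and Rad1, a subunit of the checkpoint clamp, 1.61-fold and 1.29-fold. All 15 subunits and partners of the anaphase-promoting complex lay within 1.5-fold of control at both times, with medians of 0.05 and 0.24. The largest of these differences was that of the subunit Cdc23, at 0.50 and 0.44.

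Markers of other cells and of the fibres themselves also differed between the pools, and their part in the results above was not tested. All 10 slow fibre markers lay below control at 14 days and below the 7-day array, by medians of -0.20 and -0.17 and none by 1.5-fold, whereas quantile normalization put 7 of 10 below control and 6 of 10 below the 7-day array. Their summed signal was 476305 for control, 473560 for 7 days and 410757 for 14 days. All 15 macrophage markers were measured and none was at 0. Their signals, unlogged and summed, came to 14740 for control, 19625 for 7 days and 19979 for 14 days, and 6 of 15 stood at least 1.5-fold higher at each time, among them Cd163 at 2.11-fold and 1.84-fold and Cd14 at 1.57-fold and 2.01-fold. Of 11 endothelial markers none passed 1.5-fold from control, and their summed signal was 10685, 9839 and 11555. Of 11 fibroblast and tendon markers, 2 stood higher and 3 lower at 7 days and 5 higher and 1 lower at 14 days, at summed signals of 107546, 119474 and 154875. Of 9 lymphocyte markers with a probe set of their own 3 reached the floor, at log2 signals of 7.06 at most, with summed signals of 414, 380 and 226. Of 8 satellite cell markers used here 6 were measured, Calcr and Met were under the floor, and 1 stood at least 1.5-fold higher and 3 lower at each time. Their summed signal was 12569, 8845 and 7441, or 7858, 6874 and 5113 without the bright Myog. Of 6 measured adipocyte markers 3 stood at least 1.5-fold higher at each time. Of 4 measured red blood cell markers none was as far above control, and 1 was as far below at 7 days and 2 at 14 days. Of the satellite cell list, Myod1, a regulator of muscle precursors, had signals of 8.14, 9.09 and 9.99, and Myog, which acts later in their differentiation, 12.20, 10.94 and 11.18. Over 8 reference genes the median difference was 0.14 at 7 days and -0.09 at 14 days, the former close to the members' 0.19.

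Promoter sequences of RefSeq matched 29 of the 37 genes. In the 250 bases before the start, a CHR match was present in 7 of 29, or 24.1%, against 16.2% of the 33469 promoters of the table and 10.1% of the 9349 promoters of genes measured on the arrays. A CCAAT box was present in 20 of 29, or 69.0%, against 34.0% and 35.5%, and an E2F-type match in 9 of 29, or 31.0%, against 5.58% and 8.94%. By role, a CCAAT box was about as frequent in the 11 mitotic promoters, 9 of them, as in the 11 promoters of licensing and DNA synthesis, 8 of them. CHR and CCAAT box together occurred in 6 of 11 mitotic promoters, namely those of Birc5, Ccnb2, Cdc20, Cdk1, Mki67 and Top2a, and in none of those of licensing and DNA synthesis. E2F-type matches occurred in 6 of the latter and in 2 of the former, and no difference between these groups was tested. Whether the motifs go with the differences in expression was not tested. Prim1 and Rb1, both higher in suspension, held none of the 3 motifs in this window. Cdk1 and Birc5 held all 3. Cdk1 differed from control by 0.76 at 7 days and 0.38 at 14 days. Birc5 differed by -0.28 and -0.16, within its technical SD of 0.48 and 0.47. Mcm5 and Mcm7 held E2F-type matches like Mcm2 and Mcm6 and lay near control. A match describes letters and is not a bound site, and the lack of one says only that these letters are not in this window.

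**Figure D5:**
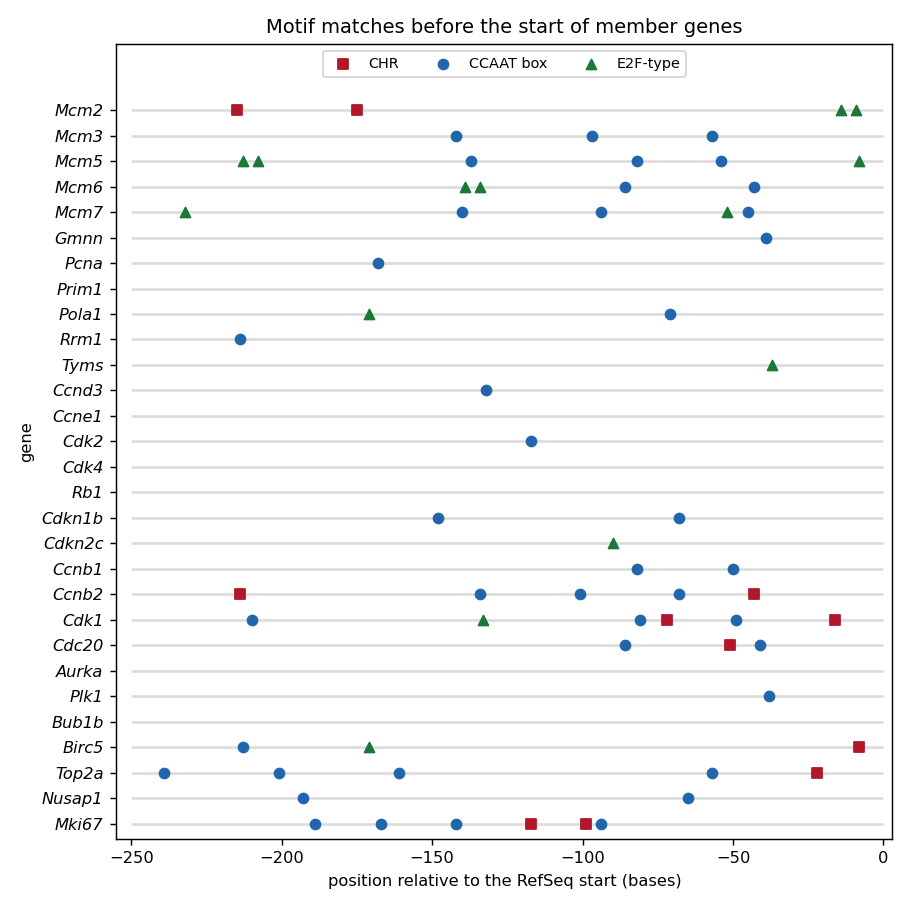
Positions of CHR, CCAAT box and E2F-type matches on either strand (x axis, bases relative to the RefSeq start) in the promoters of the 29 matched genes (y axis, in the order of their roles). Red squares for CHR lie almost only in the mitotic genes at the bottom, with Mcm2 as the exception, and green triangles for E2F-type matches lie mostly in the replication genes at the top.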

How the data were processed

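Values came from 1 Affymetrix array for each of 3 groups, each array of RNA mixed from 4 rats, per the series description. Per the labels' protocols, RNA was extracted with Trizol, purified with an RNeasy kit and labelled with biotin from 6 ug. The deposited table holds log2 signals per probe set. Their unlogged means, trimmed by 2% at each end, were 500.25, 500.25 and 500.24, so the authors had scaled the arrays to one mean, as read from the values. The program is not given in the sources used here, and there are no detection calls.

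The values were used as deposited. After 57 control probe sets were set aside, 20826 of 31042 probe sets named 1 gene, 436 several and 9780 none. Of those naming 1 gene, 20758 were matched to RefSeq by gene identifier, and no symbol changed. The probe set of highest mean stood for a gene, signals under the floor were set to it, and a gene was measured if 1 array reached it (11233 genes). A difference with the dimmer array under the floor is a lower bound, written "at least". Differences of log2 signals were computed for 7 days and 14 days against control and 14 against 7 days, and 1.5-fold was counted, with no test. Alternatives were median centring, quantile normalization, floors at the 20th and 50th percentiles, no floor, and a mean over all probe sets of each gene.

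The members and lists were chosen with earlier results of these data known. Full values are given for members measured and at least 1.5-fold apart in any comparison and for 13 set genes, and up to 3 genes per pathway list and 2 per marker list follow by largest difference from control. Not every marker so selected is reported. Other members and marker genes were named after their values were seen. Python 3.11.15, numpy 2.4.6 and pandas 2.3.3 were used, and the procedure was tested on simulated data.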

Additional observations from a re-analysis of the deposited data

Results flagged for a closer look

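Ccnd1 lay on opposite sides of control at the 2 times, at -0.35 after 7 days and 0.50 after 14 days, and differed between the suspended arrays by a log2 difference of 0.85. With 1 array per group the difference was not tested. All 3 probe sets of the gene were higher on the 14-day array than on the 7-day array. At 14 days against control they did not share a direction: the further probe sets gave -0.13 and 0.30, so the side of control on which Ccnd1 lay at 14 days is not settled.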

How the results depend on the processing

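Of the 34 measured members, 8 at 7 days and 11 at 14 days stood at least 1.5-fold above control. With no floor and no filter, which counts all 36, these numbers were 11 and 12, and 14.4% and 16.7% of all 14217 genes were then as far above. The count above control at 7 days ran from 7 to 11 over the 6 alternatives and at 14 days from 9 to 12. The floor at the 50th percentile lost Ccna2 at 7 days and Bub1b and Ccne1 at 14 days, averaging the probe sets of each gene lost Cdc20 and Top2a at 14 days, and median centring added Cdc20 and Top2a at 7 days. Members at least 1.5-fold lower numbered 1 at each time, but 2 at each with no floor and 2 at 14 days with the mean of probe sets. No difference of a named member that was at least 1.5-fold changed sign under any of the 6 alternatives. This says little, because a change of floor cannot reverse a sign and median centring shifts a whole array by one small amount. Averaging the probe sets took Cdc20 at 14 days from 0.68 to 0.09. No paired analysis was possible because each group has 1 array, and for the same reason no array could be left out. Low signal limits Aurka, Aurkb, Bub1b, Birc5, Mcm3, Ccne1, Cdk2, Tyms and Plk1, and it limits Ccna2 through its control signal of 6.58.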
